A study of Mus musculus with 16 samples.

Results

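Abi3bp, Itgbl1, Mamdc2 and Chrdl1 encode secreted proteins of connective tissue. They were chosen by their measured values: in an earlier reading of these arrays, all of them were lower in adult lungs after in-utero exposure to second-hand smoke (SHS) than after filtered air. Their probe sets were found by gene symbol among the probe sets annotated with exactly 1 symbol, which gave 8 probe sets of 4 genes among 45037 probe sets and 18193 genes. The probe sets were 1427054_s_at and 1427053_at for Abi3bp, 1425039_at for Itgbl1, 1453152_at for Mamdc2, and 1456722_at, 1421295_at, 1434201_at and 1424945_at for Chrdl1. No filter on low values was used, so all 8 were measured in every array. Because the difference between SHS and air chose the genes, it is given for them as a description with no test.

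Each sample was the left lung of a Balb/c mouse (an inbred strain prone to allergic responses) aged 23 weeks, with 1 lung on each of 16 Affymetrix Mouse Genome 430 2.0 arrays. The 4 groups of 4 mice were air females and air males, whose in-utero exposure was filtered air, and SHS females and SHS males, whose in-utero exposure was SHS. Sidestream smoke with 10 mg/m3 of suspended particles served as the surrogate for SHS, in daily sessions of 5 h, all 7 days of the week. All 16 mice, air controls included, were sensitized with injections of ovalbumin (OVA), an egg protein used as an allergen, at 19 and 21 weeks and inhaled OVA aerosol every other day in weeks 22 and 23. Each difference between SHS and air below is therefore one between lungs challenged with an allergen, and lungs without OVA were not analysed here. The labels name neither mothers nor litters, so some mice may be siblings, and p-values measure the spread between these 16 mice.

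The extracellular matrix of the lung is made mainly by its stromal cells, which are fibroblasts of the alveolar wall and of the sheaths around vessels and airways, myofibroblasts, smooth muscle and pericytes. Abi3bp is a secreted matrix protein with fibronectin type III domains. Itgbl1 is a secreted protein with repeats like the cysteine-rich stalk of integrin beta chains, and Mamdc2 is a secreted proteoglycan with MAM domains. Chrdl1, or chordin-like 1, is an antagonist of bone morphogenetic proteins (BMPs): it binds BMP ligands outside the cell and keeps them from their receptors. In BMP signalling the ligands bring together type I and type II receptor kinases, SMAD transcription factors are phosphorylated, and target genes such as the Id family are transcribed.

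In the mouse assembly GRCm38.p6, Abi3bp lies on chromosome 16 from 56477801 to 56690135, Itgbl1 on chromosome 14 from 123659937 to 123978865, Mamdc2 on chromosome 19 from 23302609 to 23448497, and Chrdl1 on chromosome X from 143285674 to 143394263. The positions of the probes within the transcripts were not analysed here. A window around the transcription start was at hand for 1 of the 4 genes, Itgbl1. It is shown to give sequence context for this gene: RefSeq sequence, GRCm38.p6, chr14:123659890-123660189, plus strand, 5′ to 3′, 250 bases before the start of 1 of its transcripts and 50 after it, with capitals for 1 CCAAT box and 3 E-boxes (CANNTG).
Itgbl1: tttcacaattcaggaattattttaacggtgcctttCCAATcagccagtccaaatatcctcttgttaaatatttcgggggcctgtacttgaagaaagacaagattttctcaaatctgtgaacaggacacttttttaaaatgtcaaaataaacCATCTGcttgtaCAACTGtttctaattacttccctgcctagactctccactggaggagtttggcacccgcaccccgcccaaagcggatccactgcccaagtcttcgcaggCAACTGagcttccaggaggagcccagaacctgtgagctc
CCAAT was searched on both strands and occurs in 37.4% of the 32851 RefSeq windows of this length, and CANNTG, which reads the same on both strands, in 72.3%. The TATA box (letters TATAAA, in 13.6% of the windows), the AP-1 site (letters TGANTCA, in 7.81%), the SMAD box (letters CAGAC, in 49.6%) and the TEAD site (letters GGAATG, in 14.7%) had 0 matches in this window on either strand. The annotated gene begins upstream of this transcript, at 123659937 inside the window, so the CCAAT box lies before the gene and the 3 E-boxes lie within it.

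Within a sex, the correlation of any pair of arrays over all probe sets was 0.990 to 0.998. SHS female replicate 4 stood apart: it correlated better with the air females (mean r = 0.995) than with the other SHS females (mean r = 0.992). SHS male replicate 4 differed from its group in the marker lists described at the end. For both reasons the differences of the 4 genes are given with and without the SHS array numbered 4 of the sex concerned, and counts of list genes in females are given without it where they moved. Levels of females and males are not compared with each other, since they also differed in the signal of RNA quality: the 3′ minus 5′ difference of the Actb control probe sets had medians of 0.18 in air females and 0.18 in SHS females, and of 1.18 in air males and 1.03 in SHS males. In females the ranges after SHS and after air overlapped. In males SHS replicate 4 stood apart in this measure too: SHS males 1 to 3 were lower than all air males (Actb at most 1.04 against 1.13 to 1.19, Gapdh 0.14 to 0.17 against 0.25 to 0.36), and replicate 4 was higher than all of them (Actb 1.24, Gapdh 0.52). The part of RNA quality in the male differences was not tested. Here and below all levels are log2 intensities and all differences are SHS minus air on the log2 scale.

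Abi3bp, the matrix protein with fibronectin type III domains, had levels of 10.19, 9.86, 10.09 and 9.89 in air females and of 9.19, 8.45, 9.07 and 9.84 in SHS females (1427054_s_at, replicates 1 to 4). The 4 SHS females lay below the 4 air females, but replicate 4 did so by only 0.019 while the other SHS females lay well below. Air males had 10.34, 10.07, 10.38 and 10.07 and SHS males 9.54, 9.57, 9.65 and 9.90. These groups did not overlap, and replicate 4 was again the highest SHS male. The mean difference was -0.87 ± 0.19 (SE, n = 4 and 4) in females, which is 54.6% of the air level, and -0.55 ± 0.19 in males, or 68.2%. Here and below the SE is limma's, from a spread shared by all 4 groups, so with all arrays it is equal in both sexes. The groups differed in spread: the SD was 0.16 in air and 0.57 in SHS females, and 0.17 in air and 0.17 in SHS males. Without SHS replicate 4 the mean difference was -1.11 ± 0.15 in females and -0.63 ± 0.21 in males. The other probe set, 1427053_at, gave -0.81 ± 0.21 and -0.66 ± 0.21. On it SHS female replicate 4, at 8.87, lay inside the air range of 8.68 to 8.93, while the other 3 SHS females were at 7.28 to 7.98.

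Mamdc2, the MAM domain proteoglycan, had 11.41, 11.32, 11.13 and 11.22 in air females and 10.55, 10.13, 10.61 and 11.02 in SHS females. The groups did not overlap, and the gap between them was 0.10. In air males it had 11.17, 11.02, 11.20 and 11.08 and in SHS males 10.41, 10.34, 10.41 and 10.49. The 4 SHS males lay close together, and 0.54 separated the highest of them from the lowest air male. The mean differences were -0.69 ± 0.13 in females (61.9% of the air level) and -0.71 ± 0.13 in males (61.2%). Without SHS replicate 4 they were -0.84 ± 0.10 and -0.73 ± 0.14.

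Itgbl1, the integrin beta-like protein, had 6.35, 6.23, 6.17 and 6.33 in air females and 5.83, 5.17, 5.49 and 5.85 in SHS females. All SHS females were at least 0.32 below all air females, and here replicate 4 was level with replicate 1. Air males had 7.48, 7.14, 7.44 and 7.10 and SHS males 6.13, 5.86, 5.94 and 5.96. A gap of 0.97 separated these groups, the widest among the 8 probe sets in either sex. The difference was -0.68 ± 0.13 in females (62.3% of the air level) and -1.32 ± 0.13 in males (40.1%, or 2.49-fold lower). Without SHS replicate 4 the differences were -0.77 ± 0.13 and -1.31 ± 0.14. The mean of this probe set lay at the 38.5th percentile of all probe sets, the dimmest of the 4 genes' brightest probe sets.

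**Figure D1:**
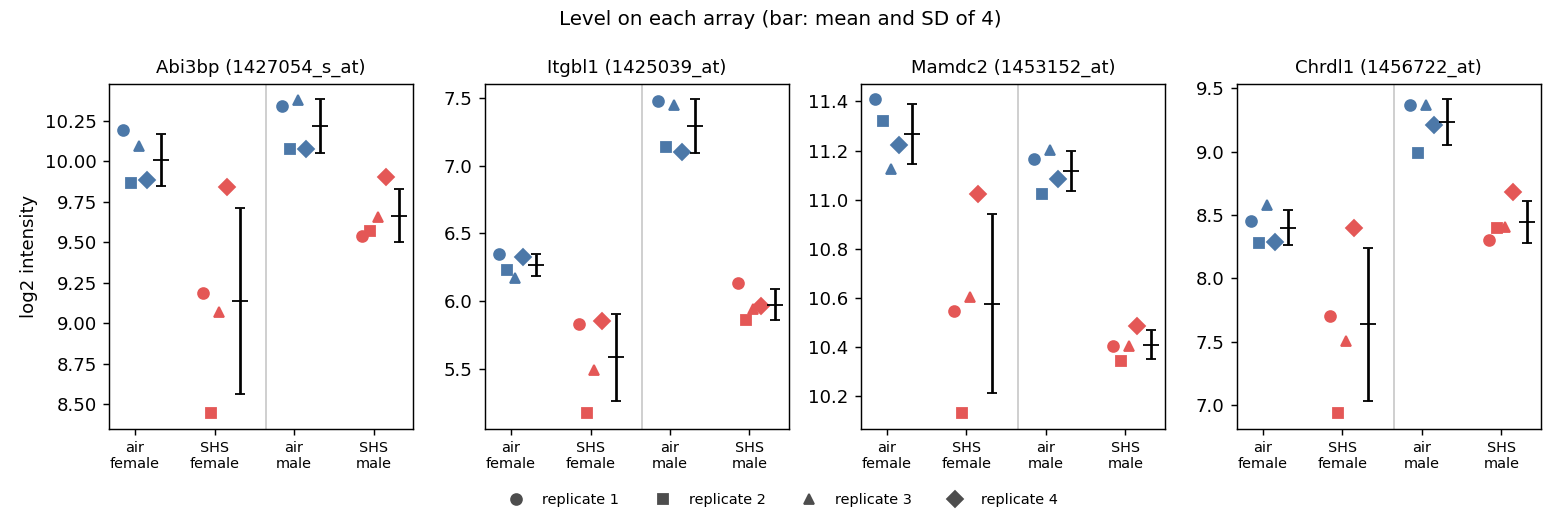
Levels of Abi3bp, Itgbl1, Mamdc2 and Chrdl1 (log2 intensity, vertical axes of different range) on each of the 16 arrays, by the probe set with the highest mean, with marker shapes for the replicate and bars for the mean and SD of 4 arrays; the sexes share a panel but are not compared. SHS female replicate 4 is the highest SHS female in each panel, at 9.84 for Abi3bp and 8.40 for Chrdl1.

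Chrdl1, the BMP antagonist, had 8.45, 8.28, 8.58 and 8.29 in air females and 7.71, 6.94, 7.50 and 8.40 in SHS females on its brightest probe set, 1456722_at. SHS female replicate 4 lay inside the air range and the other 3 SHS females below it. Air males had 9.37, 8.99, 9.37 and 9.21 and SHS males 8.30, 8.40, 8.40 and 8.68, without overlap. The difference was -0.76 ± 0.20 in females (58.9% of the air level) and -0.79 ± 0.20 in males (57.9%), and without SHS replicate 4 it was -1.02 ± 0.15 and -0.87 ± 0.22.

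The 4 probe sets of Chrdl1 did not give the same size of difference. In females the other 3 gave -0.41 ± 0.08 (1421295_at), -0.54 ± 0.13 (1434201_at) and -0.61 ± 0.16 (1424945_at). In males 1421295_at gave -0.55 ± 0.08 and 1434201_at gave -0.93 ± 0.13. The exception was 1424945_at in males, with -0.08 ± 0.16: air males had 5.22, 5.07, 4.63 and 5.04 and SHS males 4.62, 4.79, 5.05 and 5.16, so that only 1 SHS male lay below all air males. Its sign turned, to 0.01, when SHS male replicate 1 was left out. The mean of this probe set lay at the 22.3rd percentile of all probe sets, below the other 3 of Chrdl1 (60.8 to 70.1). Deviations from the group means correlated between Chrdl1 probe sets at r of 0.27 to 0.82 over 16 arrays, against 0.95 for the 2 probe sets of Abi3bp. Which transcripts the probe sets detect was not tested.

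Across the 8 probe sets the difference was below 0 in 8 of 8 in each sex, with a median of -0.69 in females and -0.69 in males, against -0.01 and -0.00 over all 45037 probe sets. All SHS arrays lay below all air arrays in 5 of the 8 in females, where 2.64% of all probe sets did so, and in 7 of the 8 in males, where 7.51% did so. The rule used these contrasts, so nothing is read from the counts. In bulk lung, fewer cells of a type and less RNA per cell cannot be told apart, and this holds for each difference given here.

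**Figure D2:**
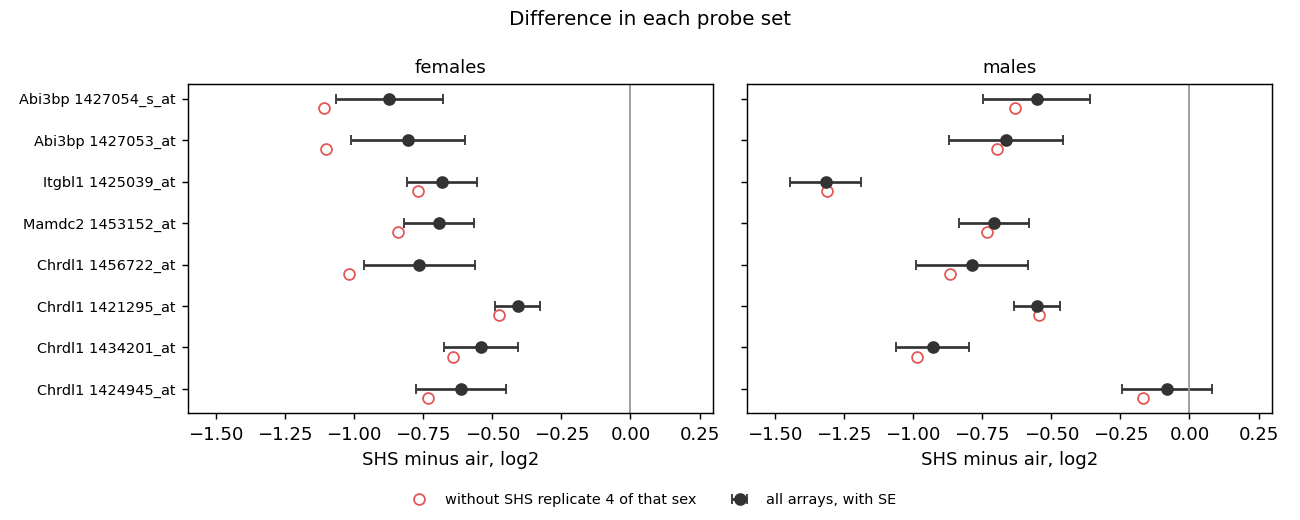
Difference SHS minus air (log2, horizontal axis) for the 8 probe sets in females and in males, filled circles with the SE over all arrays and open circles without SHS replicate 4 of that sex. All circles lie below 0, and the filled ones run from -0.87 to -0.41 in females and from -1.32 to -0.08 in males. Without SHS replicate 4 the lowest female value is -1.11.

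The genes were then compared by how they varied between lungs of the same group, with the group means removed. These deviations are not free of the selection. SHS female replicate 4 was nearer to the air females over all probe sets. Genes chosen as lower after SHS can therefore vary together among the SHS females, and the p-values are not independent of the choice. Deviations from the group means were taken for the brightest probe set of each gene over 16 arrays, for 6 pairs of genes, with two-sided permutation p adjusted by Benjamini-Hochberg over the 6. Abi3bp and Chrdl1 varied together: r = 0.976 (permutation p adjusted to 0.00054) and Spearman's rho = 0.879 (adjusted permutation p = 0.00084). Without SHS female replicates 2 and 4, the arrays farthest from the median of Abi3bp, r was 0.884 (permutation p = 0.001), and without all 4 SHS females it was 0.885 (adjusted permutation p = 0.0127). This last check was chosen after seeing the data.

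In 4 of the other pairs the correlation passed with all arrays but rested on a few of them. Abi3bp and Mamdc2 had r = 0.910 (adjusted permutation p = 0.0282) and rho = 0.659 (0.0330), and r = 0.514 (permutation p = 0.117) without SHS female replicates 2 and 4. Abi3bp and Itgbl1 had r = 0.752 (adjusted permutation p = 0.0310) and rho = 0.665 (0.0330), then 0.458 (permutation p = 0.137). Itgbl1 and Mamdc2 had r = 0.750 (adjusted permutation p = 0.0305) and rho = 0.659 (0.0330), then 0.437 (permutation p = 0.110). In these 3 pairs the correlation did not pass without the 2 arrays, by an unadjusted permutation p. These arrays were picked for their distance and 14 were left, so a weaker association is neither shown nor excluded. Mamdc2 and Chrdl1 had r = 0.869 (adjusted permutation p = 0.0378), but rho = 0.512 (0.0873), and then r = 0.277 (permutation p = 0.383). Itgbl1 and Chrdl1 did not pass with all arrays (r = 0.712, adjusted permutation p = 0.0541, and rho = 0.556, 0.0873), and r was 0.356 (permutation p = 0.301) without the 2 arrays. All 4 calls were lost when SHS female replicate 2 alone was left out (adjusted permutation p of 0.0580 to 0.191) or SHS female replicate 4 alone (0.0575 to 0.0821). They were also lost without air male replicate 2 or air male replicate 3, with adjusted permutation p of 0.0515 to 0.0853 and r of 0.742 to 0.908. The call of Mamdc2 and Chrdl1 was lost as well without SHS female replicate 1 (0.0678), SHS female replicate 3 (0.0629) or SHS male replicate 4 (0.0591), and that of Abi3bp and Itgbl1 without SHS female replicate 3 (0.0629). Within groups a high correlation was common: among 19492 to 19495 probe sets with 1 symbol and a mean above the median, r with Abi3bp exceeded 0.7 for 10.2%, with Mamdc2 for 10.2%, with Chrdl1 for 8.98% and with Itgbl1 for 2.74%.

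**Figure D3:**
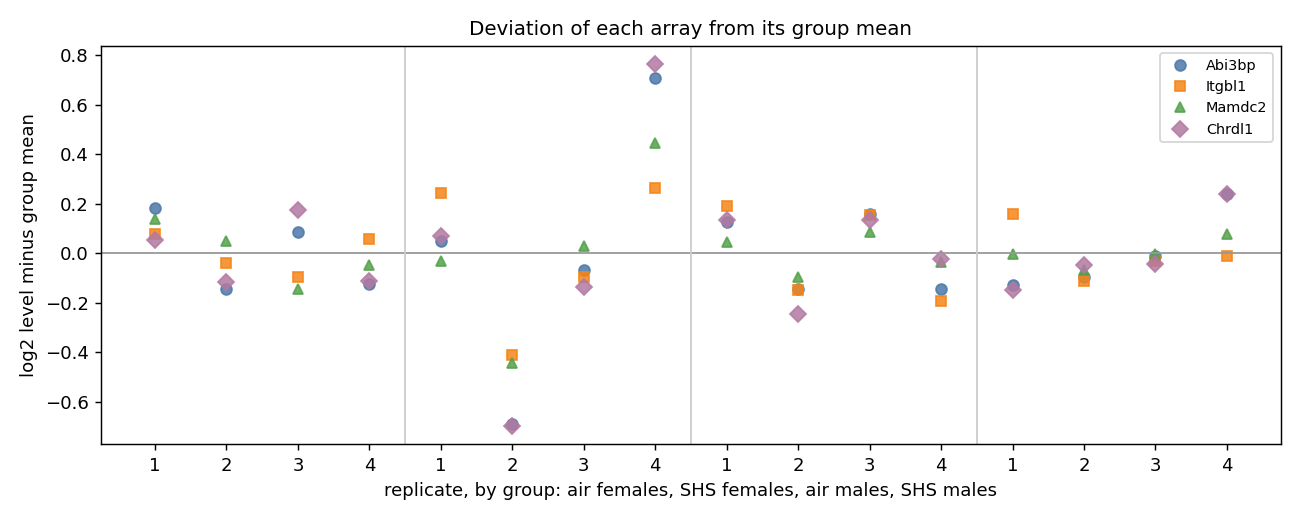
Deviation of each array from its group mean (log2, vertical axis) for Abi3bp, Itgbl1, Mamdc2 and Chrdl1, with the 16 arrays along the horizontal axis by group and replicate. Abi3bp and Chrdl1 points nearly coincide in most arrays, and the widest spread is in the SHS females, where replicate 2 is low and replicate 4 high for all 4 genes.

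The gene most like Abi3bp by this measure among all eligible genes was Chrdl1, and the gene most like Chrdl1 was Abi3bp. Next to Abi3bp came Dgkh, a diacylglycerol kinase (r = 0.965), Sdc2, a cell surface heparan sulfate proteoglycan (r = 0.965), Pdk1, a kinase that inhibits pyruvate dehydrogenase (r = 0.964), and the transcription factor Klf12 (r = 0.961). Chrdl1 shared Pdk1 (r = 0.960) with it, and the others were Aldh6a1, a mitochondrial dehydrogenase of valine breakdown (r = 0.968), Reps2 (r = 0.964) and Ndrg2 (r = 0.957). Sdc2 kept r = 0.951 with Abi3bp without the SHS females. The gene most like Mamdc2 was Nox4, an NADPH oxidase that makes hydrogen peroxide (r = 0.981, and 0.896 without the SHS females), followed by Heca (r = 0.973), Gcc2 (r = 0.968), Wasl, an activator of actin assembly (r = 0.961), and Stard9 (r = 0.958). Itgbl1 had Pcmtd1 (r = 0.948), 5530601H04Rik (r = 0.905), Emc1 (r = 0.885), Usp24 (r = 0.871) and the splicing factor Sf3b1 (r = 0.869). These correlations share the 16 arrays and carry no p. Among the genes named here other than the 4, which were not tested, none passed the test of SHS against air in either sex. The nearest were Aldh6a1 with -0.38 ± 0.11 in males (adjusted p = 0.0606) and Pdk1 with -0.33 ± 0.10 (adjusted p = 0.0611). Nox4 had -0.39 ± 0.20 in females and -0.53 ± 0.20 in males (adjusted p = 0.344 and 0.131).

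Other genes of the pathways of the 4 genes were tested over all probe sets, with limma and Benjamini-Hochberg adjustment, and each gene was taken by its brightest probe set. Over all 18193 genes, 0.676% were called lower and 3.29% higher after SHS in females, and 2.47% lower and 4.17% higher in males. Called or not, 9084 of them had a difference below 0 in females and 8664 in males. Among 90 measured genes of 7 pathway lists, 2 were lower and 0 higher in females, and 5 lower and 3 higher in males. The list medians were -0.07 and -0.04, against 0.00 and 0.01 over all genes.

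In the BMP pathway, in which Chrdl1 acts, few genes were called with all arrays. Of the 8 measured ligands 0 passed in either sex (medians -0.17 and -0.15). Bmp4 had -0.16 ± 0.08 and -0.13 ± 0.08 (adjusted p = 0.355 and 0.386), and Bmp5 had -0.26 ± 0.11 and -0.16 ± 0.11 (adjusted p = 0.218 and 0.433), in females and males. Of 12 receptors and signal transducers, Bmpr1a, a type I receptor, fell in males by 0.26 ± 0.07 (adjusted p = 0.0382), a call that was made in 8 of 16 fits with 1 array left out, with an adjusted p of up to 0.114 without air male replicate 3. The type II receptor Bmpr2 had -0.23 ± 0.12 in females and -0.06 ± 0.12 in males (adjusted p = 0.353 and 0.840). All 12 had differences below 0 in females, 8 of 12 in males.

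Among the 14 other secreted BMP antagonists measured, Nbl1 rose in males by 0.31 ± 0.08 (adjusted p = 0.0401, called in 7 of 16 such fits and at 0.106 without air male replicate 3), and none fell in either sex. Grem1, or gremlin, had 0.04 ± 0.09 and 0.09 ± 0.09 (adjusted p = 0.876 and 0.620). Of 11 BMP target genes, Bambi, a decoy receptor induced by BMP and TGF-beta, fell in both sexes, by 0.50 ± 0.11 in females (adjusted p = 0.0141) and by 0.44 ± 0.11 in males (adjusted p = 0.0213). These calls were made in 13 and in 12 of 16 such fits, with an adjusted p of up to 0.0620 without SHS female replicate 1 and up to 0.0752 without air male replicate 3. Id1, a direct SMAD target, had -0.46 ± 0.15 in females and 0.38 ± 0.15 in males (adjusted p = 0.114 and 0.153), and the difference between these effects did not pass its own test (adjusted p = 0.383).

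SHS female replicate 4 decided how many BMP genes were called in females. Without it, 2 ligands fell (Bmp5 by 0.40 ± 0.07, adjusted p = 0.00282, and Bmp6 by 0.55 ± 0.11, adjusted p = 0.00484), as did 3 receptors (Bmpr2 by 0.39 ± 0.07, adjusted p = 0.00280, with Bmpr1a and Acvr2a), the antagonists Bmper and Twsg1, and the targets Id1, Id3, Bambi and Hey1 (Bambi by 0.62 ± 0.08, adjusted p = 0.00023). The background moved as well, to 3.45% of all genes called lower and 7.66% called higher in females. Over the 7 pathway lists the count without that array was 20 lower and 4 higher. In males, without SHS replicate 4, 2.03% of all genes were called lower and 3.85% higher.

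Of the lists for the other 3 genes, the 16 measured integrin chains had 1 call, Itga7, a laminin receptor chain of muscle, which rose in males by 0.54 ± 0.11 (adjusted p = 0.00655). None of 15 MAM domain and fibronectin type III proteins passed in either sex with all arrays. Without SHS female replicate 4, 4 of the 15 were lower in females (Npnt, Nrp1, Tnxb and Fndc1) and 2 higher (Fn1 and Col14a1). In that fit Itga8 fell and Itgb6 rose among the integrin chains. With all arrays, the values in females and males were as follows. Fn1, or fibronectin, had 0.27 ± 0.11 and 0.19 ± 0.11 (adjusted p = 0.217 and 0.340), and Tnc, or tenascin C, had 0.23 ± 0.24 and 0.21 ± 0.24 (adjusted p = 0.709 and 0.686). Of 14 genes of TGF-beta, a growth factor stored in the matrix in latent form, Ltbp2, a protein of elastic fibres, fell in females by 0.50 ± 0.11 (adjusted p = 0.0184) and in males by 0.50 ± 0.11 (adjusted p = 0.0138). Its call was made in 13 and 14 of 16 such fits (up to 0.0756 without SHS female replicate 1 and 0.0527 without SHS male replicate 3). In males the latent TGF-beta binding protein Ltbp3 fell by 0.42 ± 0.07 (adjusted p = 0.00284), the receptor Tgfbr1 fell by 0.39 ± 0.08 (adjusted p = 0.00847), and the matrix protein Tgfbi rose by 0.67 ± 0.11 (adjusted p = 0.00265). Without SHS female replicate 4, 4 genes of this list were lower in females (Ltbp2, Ltbp3, Ltbp4 and Tgfbr3) and 1 higher (Tgfbi). Over all 18193 genes, limma's test called 0 different between the sexes in the SHS effect, with 1504 at an unadjusted p under 0.05, so a call in 1 sex is not shown to be particular to it.

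**Figure D4:**
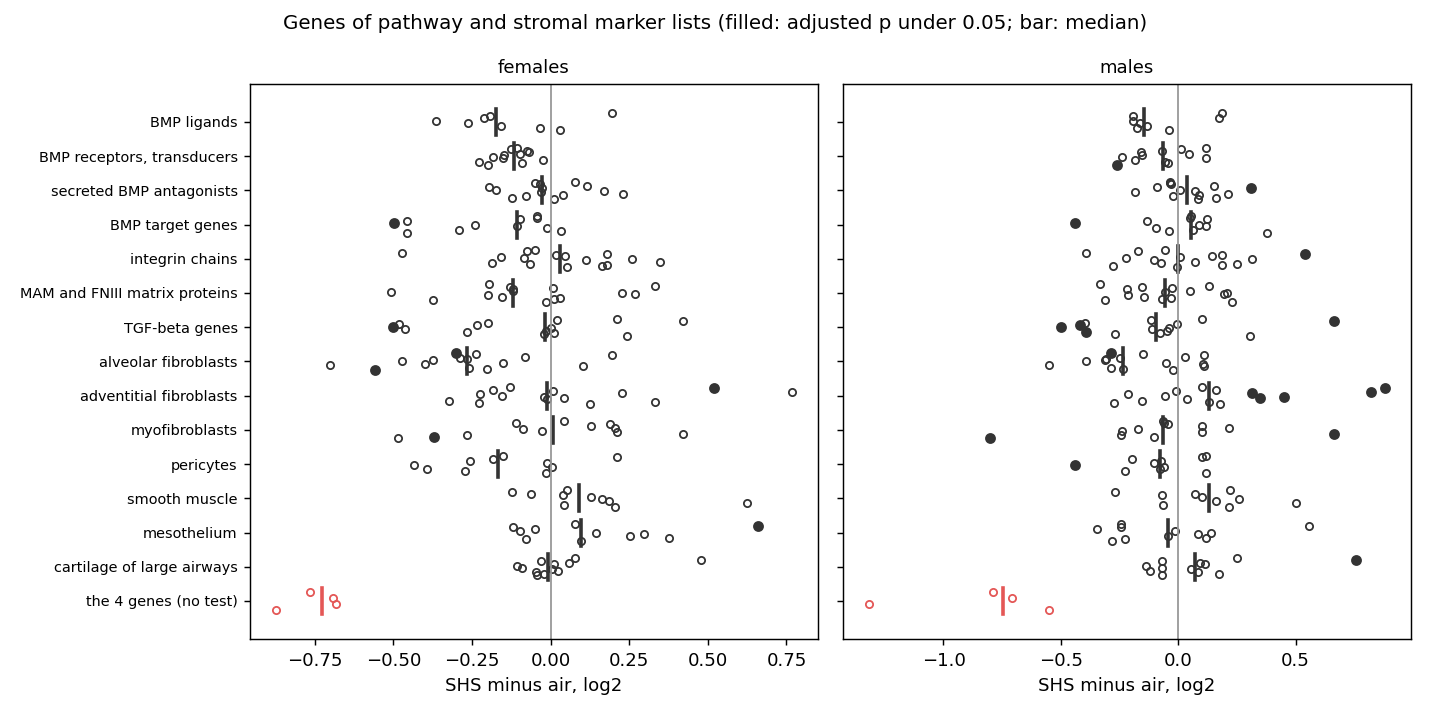
Difference SHS minus air (log2, horizontal axis) of each measured gene of the 7 pathway and 7 stromal marker lists in females and in males, filled where the adjusted p is under 0.05, with a bar for the list median; the bottom line shows the 4 genes, which were not tested. The alveolar fibroblast median is -0.27 in females and -0.24 in males, and the smooth muscle medians are 0.09 and 0.13.

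Lists of genes used as markers of stromal cells were read beside the 4 genes. Other cells of the lung can express some of these genes too, and which cells carried a change was not tested. Among 81 measured genes of 7 stromal lists, 3 were lower and 2 higher in females and 3 lower and 7 higher in males, with medians of -0.03 and -0.04. The alveolar fibroblast list had the lowest medians of the 7, -0.27 in females and -0.24 in males. Of its 15 genes, 13 and 11 had differences below 0, against 9084 and 8664 of all 18193 genes. Tcf21, a transcription factor of lung fibroblasts, fell in females by 0.56 ± 0.09 (adjusted p = 0.00315) and had -0.02 ± 0.09 in males (adjusted p = 0.923), but the effect in females minus that in males did not pass (adjusted p = 0.383). Mettl7a1 fell by 0.30 ± 0.08 in females (adjusted p = 0.0435) and by 0.29 ± 0.08 in males (adjusted p = 0.0399), calls made in 4 and 10 of 16 such fits (up to 0.138 without SHS female replicate 1 and 0.123 without SHS male replicate 1). Its probe set is of the x type, whose probes can also match related genes. Pdgfra, the receptor for platelet-derived growth factor on fibroblasts, had -0.27 ± 0.12 and -0.31 ± 0.12 (adjusted p = 0.281 and 0.152), and Col13a1 had -0.15 ± 0.14 and -0.05 ± 0.14 (adjusted p = 0.660 and 0.882). Without SHS female replicate 4, 10 of the 15 were lower in females (Tcf21, Limch1, Inmt, Scube2, Fgfr4, Itga8, Npnt, Pdgfra, Macf1 and Mettl7a1), and over the 7 lists 13 were lower and 8 higher.

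The mean level of the alveolar fibroblast list was 11.33 to 11.45 in air females and 10.90 to 11.15 in SHS females 1 to 3, while SHS female replicate 4 was at 11.47. In males it was 11.14 to 11.25 after air, 10.97 to 10.99 in SHS males 1 to 3 and 11.22 in replicate 4. In each sex, the SHS array highest in Abi3bp and Chrdl1 on their brightest probe sets was thus the one highest in this list. The same arrays were also the highest SHS arrays for the pericyte, mesothelial, endothelial and alveolar epithelial lists and for each BMP list. For the smooth muscle, myofibroblast, adventitial fibroblast and cartilage lists they were not. Itgbl1 was highest among SHS males in replicate 1 (6.13, against 5.96 in replicate 4). The part of fibroblast number in the 4 genes was not tested.

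The called genes of the adventitial fibroblast list all rose, but 8 of 15 genes had differences below 0 in females and 5 of 15 in males. Il33, an alarmin cytokine, rose in females by 0.52 ± 0.13 (adjusted p = 0.0440, called in 5 of 16 such fits and at 0.142 without air female replicate 2) and in males by 0.88 ± 0.13 (adjusted p = 0.00117). In males Ccl11, the chemokine eotaxin, rose by 0.82 ± 0.20 (adjusted p = 0.0260, called in 11 of 16 such fits and at 0.0861 without air male replicate 1), and Igfbp4, a binding protein of insulin-like growth factors, by 0.45 ± 0.09 (adjusted p = 0.00868). Clec3b (0.35 ± 0.10, adjusted p = 0.0447, called in 4 of 16 such fits and at 0.125 without SHS male replicate 2) also rose. Cd34 (0.31 ± 0.07, adjusted p = 0.0183, called in 13 of 16 such fits and at 0.0650 without air male replicate 3) was the fifth of this list to rise in males and was named after its value was seen. The medians of this list were -0.01 and 0.13 over 15 genes. Without SHS female replicate 4, Il33, Ccl11 and Col14a1 rose in females and none fell.

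The myofibroblast list was mixed. Lgr6, a receptor of R-spondins, fell in females by 0.37 ± 0.10 (adjusted p = 0.0473, called in 4 of 16 such fits and at 0.154 without air female replicate 4). In males Aspn, a small leucine-rich proteoglycan, fell by 0.80 ± 0.16 (adjusted p = 0.00709) while Tgfbi, which is also in the TGF-beta list, rose. Of 10 pericyte markers, Abcc9, a subunit of a potassium channel, fell in males by 0.44 ± 0.12 (adjusted p = 0.0445, called in 6 of 16 such fits and at 0.142 without air male replicate 3). None of 10 smooth muscle genes passed in either sex with all arrays. Without SHS female replicate 4, Actg2 (0.81 ± 0.15, adjusted p = 0.00225) and Acta2 (0.28 ± 0.08, adjusted p = 0.0460) rose in females. In that fit the pericyte markers Abcc9 and Pdgfrb fell in females. Lgr6 fell there too, while Tgfbi of the myofibroblast list and Sox9 of the cartilage list rose. Of 11 mesothelial genes Aldh1a2, an enzyme of retinoic acid synthesis, rose in females by 0.66 ± 0.16 (adjusted p = 0.0365, called in 10 of 16 such fits and at 0.118 without SHS female replicate 2). The mesothelial marker Msln had 0.10 ± 0.12 and -0.28 ± 0.12 (adjusted p = 0.771 and 0.195). The cartilage list, included because cartilage can be taken along with a lung, had 0 of 12 genes above the median level of all probe sets. Acan, the proteoglycan of cartilage, had -0.04 ± 0.12 and -0.07 ± 0.12 (adjusted p = 0.906 and 0.801). Sox9, a transcription factor of cartilage and airway epithelium, rose in males by 0.76 ± 0.19 (adjusted p = 0.0308, called in 10 of 16 such fits and at 0.101 without SHS male replicate 2).

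Markers of other cells moved with SHS as well. Cell cycle genes rose in 12 of 13 in each sex (medians 1.12 and 0.97), and the mean level of this list was 7.24 to 7.56 in air females, 8.47 to 8.66 in SHS females 1 to 3 and 7.99 in SHS female replicate 4. In males it was 7.37 to 7.62 after air, 8.53 to 8.55 in SHS males 1 to 3 and 8.13 in replicate 4. The eosinophil list was lowest in the same arrays: 7.15 in SHS female replicate 4 against 8.42 to 8.88 in the other SHS females, and 7.58 in SHS male replicate 4 against 8.35 to 8.70. None of its 6 genes was called in limma with all arrays (medians 0.07 and -0.00), but without SHS female replicate 4 the median in females was 0.41 and 3 rose: the granule proteins Epx (1.34 ± 0.30, adjusted p = 0.00985) and Prg2 (1.11 ± 0.25, adjusted p = 0.00998), and the lipoxygenase Alox15 (0.75 ± 0.18, adjusted p = 0.0151). In males the median without SHS replicate 4 was 0.24 and again none was called. In each sex, the SHS array with the lowest cell cycle and eosinophil levels had the highest Abi3bp, Mamdc2 and Chrdl1 on their brightest probe sets. This did not hold in males for Itgbl1 or for Chrdl1 on 1421295_at, where SHS male replicate 4 was at 7.44 and replicate 2 at 7.49. The part of these cells in the differences of the 4 genes was not tested. As a check of the labelled tissue, all 11 alveolar epithelial genes lay above the median level. In the other lists 1 gene or a few passed at an adjusted p under 0.05. Tek fell in females among 12 endothelial genes (-0.46 ± 0.12), Abca3 in males among 11 of the alveolar epithelium (-0.23 ± 0.06), and Scgb3a2 in both sexes among 12 of the airway epithelium (-0.84 and -0.65), where Agr2 and Muc5ac rose in males (0.96 and 0.59). Cxcr2 rose in males among 8 neutrophil genes (0.59), Mrc1 in both sexes among 11 macrophage genes (0.72 and 0.66), Cd8b1 in females among 9 T cell genes (0.40) and Fcer2a in both sexes among 10 B cell genes (1.03 and 0.89). Myh7 fell in both sexes among 12 genes of skeletal and cardiac muscle (-0.62 and -0.94). With each array left out in turn, Scgb3a2 in females, Mrc1 and Myh7 kept their calls in 16 of 16 fits. The calls of Agr2, Cxcr2, Cd8b1, Fcer2a, Tek, Muc5ac and Abca3, and of Scgb3a2 in males, were made in 4 to 15 of 16, with an adjusted p of up to 0.123 for Abca3 without air male replicate 1. Without SHS female replicate 4 more of these genes passed in females: 4 endothelial genes (Tek, Cdh5, Ednrb and Gpihbp1) and 4 of the airway epithelium (Scgb3a2, Cyp2f2, Tppp3 and Cbr2) fell, while 4 macrophage genes (Mrc1, Itgax, Csf1r and C1qa), 3 T cell genes (Cd8b1, Cd3d and Icos) and 3 B cell and plasma cell genes (Fcer2a, Ms4a1 and Mzb1) rose. In males the counts of these lists moved by at most 1 gene without SHS replicate 4.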

How the data were processed

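Total RNA was extracted with Trizol and biotinylated cRNA was hybridized to Affymetrix Mouse Genome 430 2.0 arrays, per the labels. The authors deposited 1 log2 value for each probe set and array, already normalized between arrays (medians 7.00 to 7.04) by a method not given in the sources used here. Of tools, limma alone appears in the submitters' processing notes, with no version. The base of the logarithm was judged from the range of the values, 2.58 to 15.2. Raw intensities were not analysed here.

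Values were used as deposited, and the 4 arrays per group limit the precision. After 64 control probe sets were set aside, 45037 remained, of which 34945 had 1 symbol, 932 several and 9160 none, and 34741 matched RefSeq genes of GRCm38.p6. Chl1, which equals a synonym of Chrdl1 but for case, is another gene and was left out. Group means were fitted with limma 3.58.1 in R 4.3.3 (package data.table, version 1.17.8; 12 residual and 5.56 prior degrees of freedom) over all 16 arrays, with two-sided tests, Benjamini-Hochberg adjustment over 45037 probe sets and calls at an adjusted p under 0.05. Correlations used 100000 permutations within groups. Python 3.11.15 was used for the correlations and, with matplotlib 3.10.9, for the figures. The fits and the correlation test were tested on simulated data.

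Named were all probe sets of the 4 genes, the 5 genes most like each of them among probe sets with 1 symbol and a mean above the median, up to 4 called genes per pathway or stromal list and sex, and 12 genes whatever their values (Bmp4, Bmp5, Bmpr2, Grem1, Id1, Fn1, Tnc, Pdgfra, Tcf21, Col13a1, Acan and Msln). Genes outside this rule (Cd34, and genes in the other marker lists and in the fits without an SHS array numbered 4) were named after their values were seen. The 4 genes, the 24 lists and the tests were chosen with earlier results of these data known. Replicate numbers were not used to pair the arrays: deviations of same-numbered arrays correlated at -0.08 to 0.27, above 0.1 in 1 of 4 pairs in each sex. So few pairs cannot show that no pairing exists. The alternatives were other normalizations, a filter, a replicate block, other priors and arrays, a fold minimum, another choice of probe set and arrays left out.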

Additional observations from a re-analysis of the deposited data

Results flagged for a closer look

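Among 68 sets of 4 arrays, 5 held a value separated from the other 3 by more of the range than Dixon's limit allows; chance gives about 1 in 20. For Chrdl1 (1434201_at), air female replicate 4 was at 7.39, below the other air females. In the alveolar fibroblast list, air female replicate 3 was low at 11.33 and SHS male replicate 4 high at 11.22. In the cell cycle list SHS male replicate 4 was low at 8.13. In the eosinophil list air male replicate 3 was low at 8.01. SHS male replicate 4 is thus separated in 2 lists, and its levels of the 4 genes were 9.90 for Abi3bp, 5.96 for Itgbl1, 10.49 for Mamdc2 and 8.68 for Chrdl1.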

How the results depend on the processing

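The 8 probe sets kept differences below 0 in both sexes under every normalization, block and left-out array tried, except Chrdl1 1424945_at in males. Quantile normalization gave 6 stromal genes lower and 1 higher and 7 pathway genes lower in females, and 5 stromal genes lower in males. The replicate block gave 5 stromal genes lower and 4 higher and 1 pathway gene higher in females, and r = 0.746 for Itgbl1 and Chrdl1 (adjusted permutation p = 0.0128), which then passed. The replicate block changed the call of no other correlation and moved no other count by over 1.5 times. Of 1294 probe sets called in females, arrays of females alone gave 448, and a 1.5-fold minimum left 366 there and 463 in males. Without both SHS arrays numbered 4, 3954 were called in females, with 14 stromal genes lower and 8 higher and 22 pathway genes lower and 5 higher, and in males 10 stromal and 9 pathway genes were lower. With the mean of all probe sets of a gene, 5 stromal genes were higher, 6 pathway genes lower and 1 higher in females, and 3 pathway genes lower in males. Without the 4 SHS females, r was 0.436 for Abi3bp and Itgbl1, 0.555 for Abi3bp and Mamdc2, 0.6004 for Itgbl1 and Mamdc2 and 0.339 for Mamdc2 and Chrdl1, none of which passed. The causes were not tested.

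With each array left out in turn, 657 to 3604 probe sets were called in females and 1073 to 3153 in males. In each sex the highest count came without SHS female replicate 4, since all groups share 1 spread. With all arrays, 2332 were called in males. Stromal genes called numbered 1 to 13 lower and 0 to 8 higher in females, and 1 to 7 lower and 3 to 8 higher in males. The 7 lower in males were called without SHS female replicate 4, against 3 with all arrays. Pathway genes called numbered 0 to 20 lower and 0 to 4 higher in females, and 2 to 7 lower and 2 to 3 higher in males. The within-group r ranged from 0.515 to 0.822 for Abi3bp and Itgbl1, 0.799 to 0.965 for Abi3bp and Mamdc2, and 0.495 to 0.845 for Itgbl1 and Mamdc2. It ranged from 0.449 to 0.785 for Itgbl1 and Chrdl1, 0.694 to 0.954 for Mamdc2 and Chrdl1, and 0.947 to 0.986 for Abi3bp and Chrdl1. For Abi3bp and Chrdl1 the adjusted permutation p was at most 0.00426 in these 16 fits. The fits share most of their arrays and the genes were chosen on the same arrays, so this is no independent support. With 4 arrays a group and no raw signal over background, dim probe sets such as Itgbl1 and Chrdl1 1424945_at are the least certain.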
